A study of Mus musculus with 6 samples.

Results

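The miR-30 family was followed through serum exosomes of 3 sham and 3 Acu/LFES mice by small RNA sequencing. The 8 members were the rows of the deposited count table named for the 5p arms mmu-miR-30a-5p, mmu-miR-30b-5p, mmu-miR-30c-5p, mmu-miR-30d-5p and mmu-miR-30e-5p and for the 3p arms mmu-miR-30a-3p, mmu-miR-30e-3p and mmu-miR-30c-2-3p. They are 8 of 1982 mature miRNAs listed and of 954 with at least 1 count in any mouse. The rule that picks them uses their names alone.

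All 6 mice were male C57BL/6 animals aged 3 months, each giving 1 library. Acu/LFES is acupuncture with low-frequency electrical stimulation, given once to the hindlimb for 30 min in mice numbered 4 to 6. The sham group, mice 1 to 3, was needled beside the stimulated points and received no current. Exosomes, small vesicles that cells release and that carry miRNAs, were spun out of serum, which pools vesicles from many tissues, so the source cell of a miRNA is not known. In such a bulk sample, fewer vesicles from a cell type and fewer copies per vesicle cannot be told apart.

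A miRNA hairpin is cut to a short duplex, and usually 1 strand, the guide, is loaded into an Argonaute protein, while the other is mostly degraded. The guide finds target mRNAs by its seed, bases 2 to 8 counted from the 5′ end, and lowers their translation or stability. The miR-30 family is broadly expressed, with much of it in heart, skeletal muscle, kidney and fat, and is known for roles in mitochondrial fission, autophagy and differentiation. Members 30a with 30c-2, 30b with 30d, and 30c-1 with 30e lie as neighbours in the genome, in 3 pairs.

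The sequences are shown because they tell which members share a seed and how little separates some of them. RefSeq, on mouse build GRCm38, held a mature sequence for 6 of the 8 members. mmu-miR-30b-5p and mmu-miR-30d-5p are named without a sequence or position. Seed bases are in capitals.
mmu-miR-30a-5p: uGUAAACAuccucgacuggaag
mmu-miR-30e-5p: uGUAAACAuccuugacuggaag
mmu-miR-30c-5p: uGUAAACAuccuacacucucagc
mmu-miR-30a-3p: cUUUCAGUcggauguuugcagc
mmu-miR-30e-3p: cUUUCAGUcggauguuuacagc
mmu-miR-30c-2-3p: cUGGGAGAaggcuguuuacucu
mmu-miR-30c-1-3p: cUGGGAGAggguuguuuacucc

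The 5p arms shared the seed GUAAACA, which 4 of the 1623 listed miRNAs with a sequence carried: mmu-miR-30a-5p, mmu-miR-30c-5p, mmu-miR-30e-5p and mmu-miR-384-5p. The last had no count in any mouse. With positions counted from the 5′ end and mmu-miR-30a-5p first, mmu-miR-30e-5p differed from it by C13U only. mmu-miR-30c-5p differed from mmu-miR-30a-5p over the first 22 bases at 5 places, C13A, G14C, G18C, G19U and A20C. The 3p arms mmu-miR-30a-3p and mmu-miR-30e-3p shared the seed UUUCAGU and differed by G18A alone. Both 30c hairpins give the same mmu-miR-30c-5p, so its count cannot be divided between them, while their 3p arms differed by G9A, U12C and C22U with mmu-miR-30c-1-3p first, and can be counted apart. Reads of members 1 base apart could be assigned to the wrong member if a mismatch was allowed, and the allowance is not given in the sources used here.

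The 4 hairpins with a position formed 2 of the 3 pairs. Mir30a lies at chr1:23272269-23272339 on the plus strand, outside other annotated genes, and Mir30c-2 at chr1:23291701-23291784 on the same strand, in an exon of the long noncoding RNA gene Gm27028. They are 19361 bases apart. Mir30c-1 (chr4:120769534-120769622) and Mir30e (chr4:120772606-120772697) lie on the minus strand, 2983 bases apart, in introns of Nfyc, which encodes a subunit of the transcription factor NF-Y and runs on that strand too.

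The libraries held 391708 to 1504137 counts. miR-486a-5p, used here as a red cell marker, and miR-486b-5p are listed with the same count each. Summed over both rows, which may enter the same reads 2 times, they took 61.7 to 74.0% of 5 libraries. In Acu/LFES mouse 6, which stood apart, they took 29.2%. Levels below are counts per 1000000 (CPM), taken on library sizes corrected by TMM, edgeR's scaling to the bulk of miRNAs, and 3 counts were worth 1.80 to 9.91 CPM. The row of each member differed from every other row of the table.

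The family was dominated by mmu-miR-30d-5p, and the 8 members spanned from 14095 CPM at the highest down to no read at all. mmu-miR-30d-5p was counted 8781, 6042 and 3555 times in sham mice 1 to 3 and 18990, 5174 and 13411 times in Acu/LFES mice 4 to 6, which is 12659, 14095 and 11747 CPM against 11365, 10758 and 12238. Its level after TMM scaling was thus nearly flat over the 6 mice, with overlapping groups. The means were 12834 ± 1183 (SD) in the 3 sham and 11454 ± 744 CPM in the 3 Acu/LFES mice. The next in order was mmu-miR-30a-5p, below mmu-miR-30d-5p in all 6 mice and, averaged on the log scale, 2.18-fold lower. mmu-miR-30c-5p stood 2.15-fold below mmu-miR-30a-5p with no overlap of the ranges. Below it, mmu-miR-30e-5p was 1.73-fold lower by the mean, but the ranges overlapped and it was lower in only 4 of 6 mice. mmu-miR-30b-5p was 5.84-fold below mmu-miR-30e-5p and overlapped with mmu-miR-30a-3p, the most abundant of the 3p arms. Last came mmu-miR-30c-2-3p and mmu-miR-30e-3p, which overlapped and were near the detection limit in several mice. This order was set on CPM without regard to ligation and PCR, which act differently on different small RNAs.

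**Figure D1:**
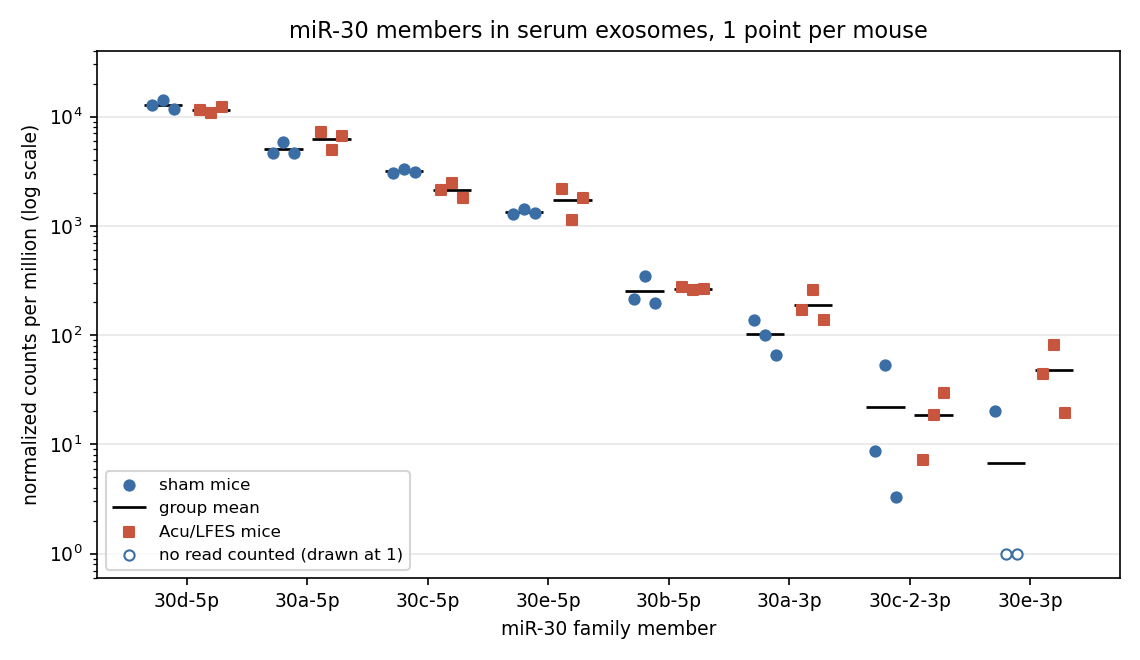
Normalized CPM (log axis) of each of the 8 members, 1 point per mouse, with sham mice as circles, Acu/LFES mice as squares and a line at each group mean; open circles at the bottom are sham mice with no read. For mmu-miR-30c-5p all Acu/LFES squares lie below all sham circles, while for the other 5p members the groups overlap.

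Of the tested members, mmu-miR-30c-5p was the 1 whose groups did not overlap, and its change did not pass the test. It stood at 3068, 3331 and 3080 CPM in sham mice 1 to 3 and at 2117, 2472 and 1785 CPM in Acu/LFES mice 4 to 6. Every Acu/LFES mouse was below every sham mouse, and the mean went from 3160 ± 149 to 2125 ± 344 CPM, a difference of -32.7%. Groups that did not overlap made up 8.11% of the 259 miRNAs tested with Acu/LFES lower and 8.88% with Acu/LFES higher. Among the 7 members that passed the low-count filter mmu-miR-30c-5p was the 1 with either pattern, which is near the share over all tested miRNAs. By edgeR's quasi-likelihood test the log2 fold change was -0.57 (SE 0.22, 95% interval -1.05 to -0.09), with an unadjusted p of 0.0242 and a Benjamini-Hochberg adjusted p of 0.503 over the 259 miRNAs, so the change did not pass the threshold of 0.05. DESeq2 gave -0.59 with an adjusted p of 0.0656. With sham mouse 1, 2 or 3 or Acu/LFES mouse 6 left out, the unadjusted edgeR value rose above 0.05, to 0.0634, 0.0717, 0.0749 and 0.0954, with log2 fold changes of -0.56, -0.54, -0.56 and -0.42. Scaled to total counts, which miR-486 dominates, mmu-miR-30c-5p had a log2 fold change of 0.01 where the median of all tested miRNAs was 0.71, against 0.05 with TMM, so its distance from the median was -0.70 and -0.62.

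mmu-miR-30a-5p and mmu-miR-30e-5p, which differ by 1 base, had higher means in Acu/LFES mice, without passing the test. mmu-miR-30a-5p measured 4618, 5806 and 4653 CPM in sham mice and 7163, 4984 and 6615 CPM in Acu/LFES mice. Mice 4 and 6 lay above every sham mouse, and mouse 5 lay among them (mean 5025 ± 676 against 6254 ± 1133 CPM, n = 3 each). Its log2 fold change was 0.32 (95% interval -0.21 to 0.84, edgeR adjusted p = 0.786). mmu-miR-30e-5p measured 1289, 1435 and 1299 CPM in sham mice and 2189, 1142 and 1810 CPM in Acu/LFES mice. Again mice 4 and 6 were above all sham mice, but mouse 5 was the lowest of all 6, and the log2 fold change was 0.35 (95% interval -0.24 to 0.95, edgeR adjusted p = 0.786). It was 0.14 without mouse 4 and 0.62 without mouse 5, and that of mmu-miR-30a-5p was 0.50 without mouse 5 (edgeR adjusted p = 0.999, 0.296 and 0.438).

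The neighbours mmu-miR-30b-5p and mmu-miR-30d-5p showed no difference that the test could resolve. mmu-miR-30b-5p stood at 212, 348 and 198 CPM in sham mice and at 274, 258 and 263 CPM in Acu/LFES mice, the latter all inside the sham range. Its log2 fold change was 0.07, with a 95% interval from -0.72 to 0.85 that leaves room for changes in either direction (edgeR adjusted p = 0.967). For mmu-miR-30d-5p the log2 fold change was -0.16 (95% interval -0.67 to 0.34, edgeR adjusted p = 0.861), and it was 0.53 when scaled to total counts, below the median of all tested miRNAs under both scalings.

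The 3p arms were rare, and 2 of the 3, mmu-miR-30a-3p and mmu-miR-30e-3p, had higher means in Acu/LFES mice without passing the test. mmu-miR-30a-3p, the passenger strand of the Mir30a hairpin, had 96, 43 and 20 counts in sham mice and 281, 124 and 150 in Acu/LFES mice, or 138, 100 and 66.1 against 168, 258 and 137 CPM. The groups touched, since mouse 6 fell just below mouse 1. The log2 fold change was 0.87 (95% interval -0.19 to 1.92, edgeR adjusted p = 0.583). mmu-miR-30e-3p had 14, 0 and 0 counts in sham mice and 74, 39 and 21 in Acu/LFES mice. It was thus read in 1 of 3 sham and 3 of 3 Acu/LFES mice, at 20.2 CPM in mouse 1 and at 44.3, 81.1 and 19.2 CPM in mice 4 to 6, and a count of 0 allows up to 9.91 CPM in mouse 3 and less in mouse 2. Mouse 6 was below mouse 1, so the groups overlapped, and the fitted log2 fold change was 2.62 (95% interval -0.30 to 5.54, edgeR adjusted p = 0.568). It rests on the 14 counts of sham mouse 1: without that mouse the sham libraries are all at 0 and the fitted value is 8.24 (edgeR adjusted p = 0.220), which is no bound. mmu-miR-30c-2-3p, with 6, 23 and 1 counts in sham and 12, 9 and 32 in Acu/LFES mice, did not pass the low-count filter and spread widely within both groups. The 3p arms together made up 0.760, 0.612 and 0.330% of the counts of all 8 members in sham and 0.942, 1.79 and 0.809% in Acu/LFES mice. Mouse 6 lay above sham mouse 1 by less than counting error, with exact binomial 95% intervals of 0.702 to 0.928% and 0.628 to 0.911%. The mean difference of 0.61 percentage points fell to 0.31 without mouse 5, and no test was run on it.

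Counted over the family, 0 of the 7 tested members passed the adjusted threshold in edgeR, as did 0.00% of all 259 miRNAs. At an unadjusted p under 0.05, edgeR called 1 member lower, where 3.09% of all miRNAs were called lower, and 0 members higher, where 5.79% were. DESeq2 called 8 miRNAs at its adjusted threshold, or 3.09% of those tested, and none was among the 6 members it gave an adjusted p (it gave none for mmu-miR-30e-3p). Groups did not overlap with Acu/LFES higher for 8.88% of all miRNAs and for 0 of the 7 members. Of the 7, 5 had a positive log2 fold change, with a median of 0.32 beside 0.05 over all tested. For mmu-miR-30d-5p the coefficient of variation of the TMM-scaled CPM was 9.22% in sham and 6.50% in Acu/LFES mice. The medians over all tested miRNAs were 43.2% and 35.7%. Those medians include low-count miRNAs and were not matched for abundance. For mmu-miR-30c-5p the coefficient was 4.71% and 16.2%, and for mmu-miR-30e-5p 6.08% and 30.9%.

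**Figure D2:**
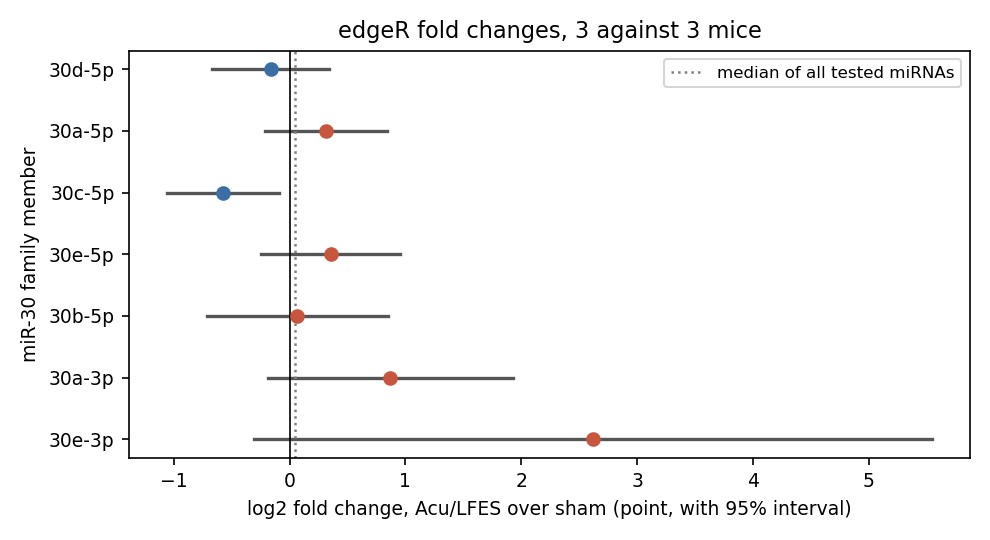
Log2 fold change (Acu/LFES over sham, edgeR) of the 7 tested members as points with 95% intervals, beside a dotted line at the median of all 259 tested miRNAs. The interval of mmu-miR-30c-5p, from -1.05 to -0.09, lies below 0, and those of the other 6 members include 0.

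The summed level of the 5p arms overlapped between the groups. It came to 21845, 25014 and 20977 CPM in sham mice and 23108, 19614 and 22710 CPM in Acu/LFES mice. The mean of 22612 ± 2125 CPM in sham stood beside 21811 ± 1913 CPM in the Acu/LFES group (SD, 3 mice in each), a difference of -3.54%. As a share of all counts without miR-486a-5p and miR-486b-5p the sum was 6.07 ± 0.39% and 6.39 ± 0.65%. As a share of all counts it was 1.89 ± 0.46% and 2.96 ± 1.69%, with the spread in Acu/LFES mice set by mouse 6 at 4.81%, the library with the small miR-486 share.

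The make-up of that sum was described for each mouse, without a test. mmu-miR-30a-5p took 21.1, 23.2 and 22.2% of the summed 5p counts in sham mice and 31.0, 25.4 and 29.1% in Acu/LFES mice. mmu-miR-30c-5p took 14.0, 13.3 and 14.7% in sham and 9.16, 12.6 and 7.86% in Acu/LFES mice. All Acu/LFES mice were above all sham mice in the first and below them in the second, by 6.34 and 4.14 percentage points on average. mmu-miR-30d-5p also took less in every Acu/LFES mouse, at 57.9, 56.3 and 56.0% against 49.2, 54.9 and 53.9%. The share of mmu-miR-30e-5p was 5.94 ± 0.23% in sham and 7.75 ± 1.84% in Acu/LFES mice with overlap, and that of mmu-miR-30b-5p 1.10 ± 0.25% and 1.22 ± 0.084%, with overlap too. Exact binomial 95% intervals on these shares were at most 1.23 percentage points to either side and cover counting error only. Mouse 5 was not set apart by them for mmu-miR-30c-5p and mmu-miR-30d-5p. Its interval for mmu-miR-30c-5p, 11.94 to 13.29%, overlapped that of sham mouse 2, 12.68 to 13.97%. Its interval for mmu-miR-30d-5p, 53.84 to 55.86%, overlapped that of sham mouse 3, 54.77 to 57.23%. The intervals of mmu-miR-30a-5p in mouse 5 and sham mouse 2, the nearest, did not overlap. Shares of 1 sum are tied to each other, so a rise of 1 member lowers the rest, and no test was run on them.

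**Figure D3:**
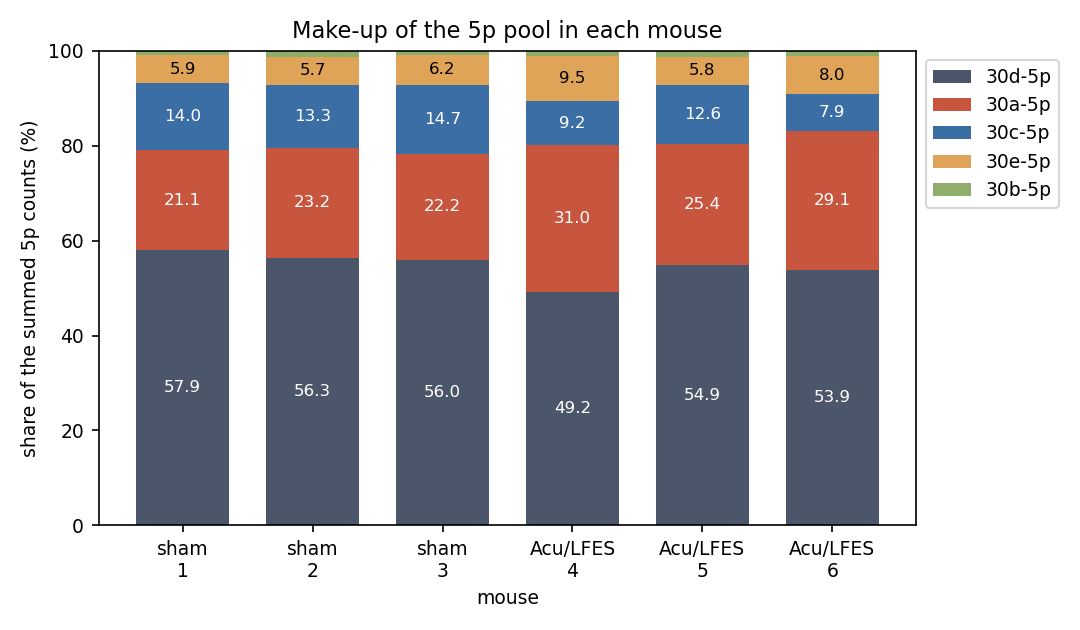
Share of the summed 5p counts (%) held by each of the 5 members in each mouse, stacked to 100. mmu-miR-30a-5p (red) takes 21.1 to 23.2% in the sham bars and 25.4 to 31.0% in the Acu/LFES bars, while mmu-miR-30c-5p (blue) goes from 13.3 to 14.7% down to 7.86 to 12.6%.

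A ratio of 2 members within a library needs no scaling, so the genomic partners and the arms of a hairpin were compared that way. mmu-miR-30a-5p was counted 1.51, 1.74 and 1.51 times as often as mmu-miR-30c-5p in sham mice and 3.38, 2.02 and 3.71 times as often in Acu/LFES mice. All Acu/LFES mice were above all sham mice, and the log2 ratio was 0.66 ± 0.12 in sham and 1.55 ± 0.47 after Acu/LFES, a 1.85-fold difference. The exact two-sided permutation p was 0.1, the smallest that 3 against 3 mice can give, and 0.3 adjusted over the 6 ratios tested, so the difference did not pass the threshold. mmu-miR-30e-5p to mmu-miR-30c-5p, partners at the Nfyc locus, gave 0.420, 0.431 and 0.422 in sham mice and 1.03, 0.462 and 1.01 in Acu/LFES mice. The sham mice lay close together, mice 4 and 6 were far above them, and mouse 5 only just above. The lack of overlap thus rests on mouse 5, with 549 and 1189 counts, against sham mouse 2, with 615 and 1428. Counting error of this ratio was not computed. The log2 ratio was -1.24 ± 0.019 in sham and -0.35 ± 0.66 in Acu/LFES mice. That is also a 1.85-fold difference, at an exact permutation p of 0.1 (adjusted p = 0.3). Both ratios share the mmu-miR-30c-5p counts, so they are not independent results.

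Mice 4 and 6, with the high ratios, also had the largest library sizes after TMM scaling, 1670863 and 1095839 counts, while mouse 5 had 480939 and the sham mice 693664, 428678 and 302622. The order did not hold among the other mice, since sham mouse 1, the third largest, had the lowest of both ratios. In total counts as deposited, mouse 6 with 517421 was below mice 1, 2 and 5, at 624982, 658833 and 631279. The part of depth in the ratios was not tested.

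Over the 6 mice, the ratio of mmu-miR-30a-5p to mmu-miR-30e-5p was the steadiest of the 10 that the 5p members allow. It was 3.58, 4.05 and 3.58 in sham mice and 3.27, 4.37 and 3.66 in Acu/LFES mice. The SD of its log2 value over the 6 mice was 0.15, where that of mmu-miR-30c-5p to mmu-miR-30e-5p was the widest at 0.64. Within the sham mice the latter was the tighter, at -1.24 ± 0.019 for mmu-miR-30e-5p to mmu-miR-30c-5p. There the log2 ratio of mmu-miR-30a-5p to mmu-miR-30e-5p was 1.84, 2.02 and 1.84. mmu-miR-30c-5p comes from both 30c hairpins, and members 1 base apart could share reads, so these ratios do not compare loci. For the partners mmu-miR-30d-5p and mmu-miR-30b-5p the log2 ratio was 5.71 ± 0.32 in sham and 5.43 ± 0.093 in Acu/LFES mice, with overlapping groups (exact permutation p = 0.4, adjusted p = 0.48).

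**Figure D4:**
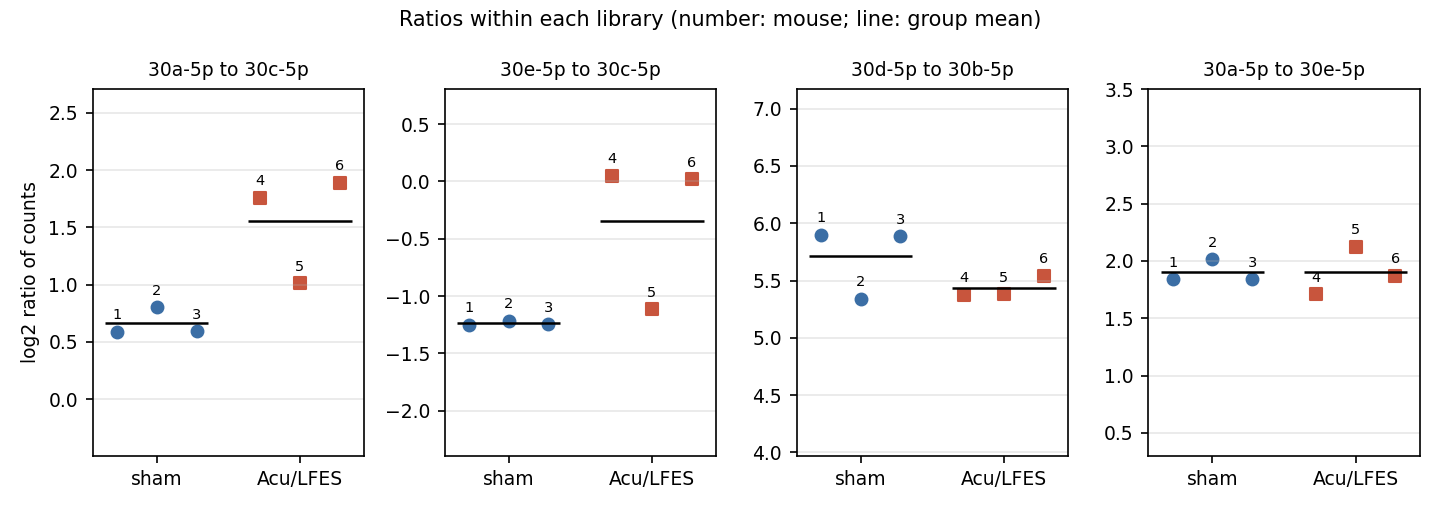
Log2 ratio of counts for 4 pairs of 5p members, 1 point per mouse with its number, sham as circles and Acu/LFES as squares, with lines at the group means and the same span on each y axis. The first and second panels show the ratios of mmu-miR-30a-5p and of mmu-miR-30e-5p to mmu-miR-30c-5p, high in mice 4 and 6 and near sham in mouse 5, and the last shows that of mmu-miR-30a-5p to mmu-miR-30e-5p, from 1.71 to 2.13 in all 6 mice.

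Between the arms of 1 hairpin, the 5p strand was the more abundant in every mouse. mmu-miR-30a-5p exceeded mmu-miR-30a-3p by a log2 ratio of 5.68 ± 0.56 in sham and 5.09 ± 0.72 in Acu/LFES mice (exact permutation p = 0.4, adjusted p = 0.48). For mmu-miR-30c-5p over mmu-miR-30c-2-3p the values were 8.10 ± 1.98 and 7.06 ± 1.14 (exact permutation p = 0.4, adjusted p = 0.48), a comparison that rests on 1 to 32 counts of the 3p arm and in which the 5p count also holds reads from the 30c-1 hairpin. The groups overlapped in both. mmu-miR-30a-3p over mmu-miR-30c-2-3p, the 3p arms of the neighbours on chromosome 1, gave 3.07 ± 1.89 and 3.52 ± 1.18 (exact permutation p = 0.7, adjusted p = 0.7). The 30e arms could not be tested, because the 3p arm was at 0 in sham mice 2 and 3. There the 5p arm was 63.9 times as frequent in mouse 1, at least 205 times in mouse 2 and at least 131 times in mouse 3, against 49.4, 14.1 and 94.4 times in Acu/LFES mice 4 to 6, where the floor was 3 counts per library. Mice 4 and 5 were thus below all sham mice and mouse 6 was not. The ratio of sham mouse 1, the nearest to mouse 4, rests on 14 counts of the 3p arm. Counting error of these ratios was not computed.

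The other rows of the family were close to empty. mmu-miR-30b-3p had 5, 0 and 9 counts in sham and 9, 0 and 0 in Acu/LFES mice, mmu-miR-30c-1-3p 10 in sham mouse 2 and 18 in Acu/LFES mouse 6, and mmu-miR-30d-3p 11 in sham mouse 1, 2 in mouse 4 and 10 in mouse 6. mmu-miR-30f, from the strand opposite Mir30e, had 1 count in mouse 4, and mmu-miR-384-3p had none. Serum exosomes thus held the 5p arms of all 5 members and, among the 3p arms, mainly that of 30a.

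The profile of the summed 5p members over the 6 mice was most like those of miR-98-5p, miR-26a-5p and miR-320-3p. Their root mean square distances from it, on log2 CPM centred on each mean, were 0.12, 0.12 and 0.15, where the median of the 252 other tested miRNAs was 0.67. mmu-miR-30d-5p, the bulk of the sum, was at 0.08, and mmu-miR-30c-5p was the farthest of the 5p members at 0.34. A short distance here means a level that is nearly flat after TMM scaling, as for miR-98-5p at 740 to 920 CPM.

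The cell types that could supply these miRNAs were read from short lists of marker miRNAs. For the 4 white cell and platelet miRNAs the summed level was 6278 to 7325 CPM in sham and 4775 to 6816 in Acu/LFES mice. The 5 skeletal and cardiac muscle miRNAs, summed to 10092 to 11258 and 7475 to 12447 CPM. Of these, miR-208b-3p was at 0 in all mice. miR-499-5p had 51 and 20 counts in mice 4 and 6, the largest libraries after TMM scaling, and 0 in the other 4. The liver miRNA miR-122-5p ranged from 7325 to 20828 and 1693 to 15312 CPM, and the 5 red cell miRNAs, with miR-144-3p at 3 counts in mouse 4, 1 in mouse 6 and 0 elsewhere, from 286041 to 578153 and 78167 to 490008 CPM. These summed ranges overlapped between the groups, as did those of the 2 endothelial miRNAs (2151 to 2589 and 1487 to 2171 CPM). Most of the red cell sum was miR-486a-5p in every mouse, and the low sum in mouse 6 was set by that row, at 68843 CPM. In mouse 6, miR-451a stood at 941 CPM (691 to 1299 in sham mice) and miR-144-5p at 189 CPM (107 to 350 in sham mice). There miR-16-5p stood at 8193 CPM (7204 to 8113 in sham mice). The part of any of these marker lists in the levels and ratios of the members was not tested.

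Total counts in place of TMM moved the fold changes of the 5p arms more than those of the 3p arms. Under total counts all 7 tested members had positive log2 fold changes, with a median of 1.04 beside 0.71 for all tested miRNAs. The value of mmu-miR-30e-3p went only from 2.62 to 2.68. Among the 5 scalings drawn, mmu-miR-30e-5p was above mmu-miR-30a-5p except with scaling to miR-103-3p, where they stood at 0.38 and 0.40. Under all 5 scalings drawn, mmu-miR-30c-5p was the lowest of the 5p members. Its log2 fold change less the median of all tested miRNAs lay between -0.59 and -0.70. Each scaling sets 1 factor per library, which shifts well-counted miRNAs of that library nearly alike. This order and this distance were thus nearly fixed in advance and lend no support to a change.

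**Figure D5:**
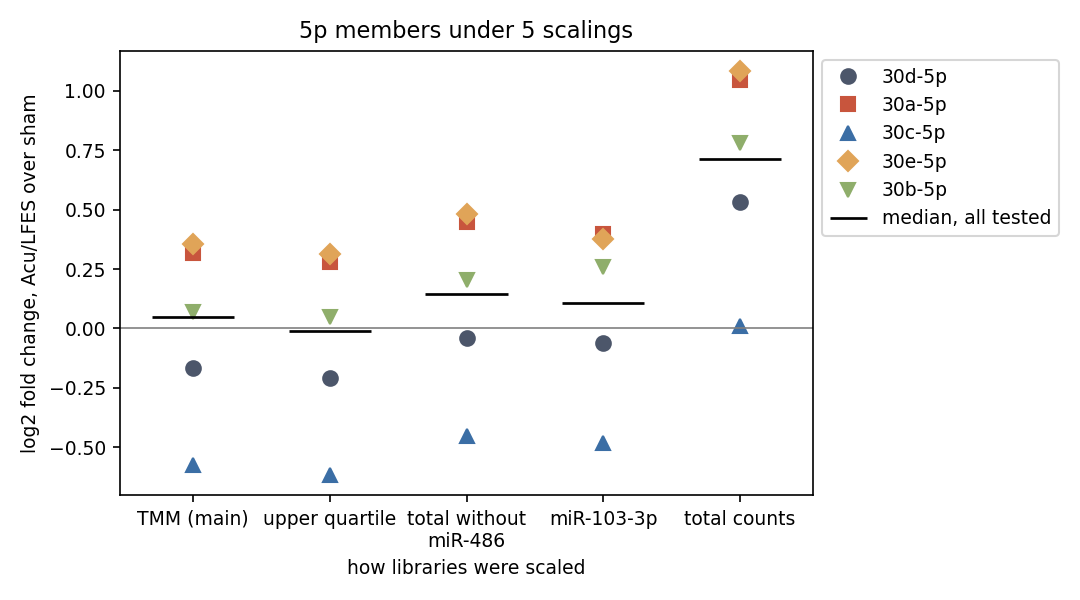
Log2 fold change (Acu/LFES over sham) of the 5 members' 5p arms under 5 ways of scaling the libraries, with a line at the median of all tested miRNAs. With total counts every value moves up, mmu-miR-30c-5p to 0.01 and mmu-miR-30d-5p to 0.53, and mmu-miR-30c-5p stays lowest in each column. Scaling by 1 factor per library leaves this order nearly unchanged by construction.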

How the data were processed

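Small RNA of serum exosomes was sequenced in a single lane. The authors deposited whole-number counts per mature miRNA, 1 column per mouse, with no normalization. The labels name bcl2fastq, cutadapt 1.6 and DESeq2 1.26.0; the aligner, the counter, its mismatch allowance and the miRNA annotation are not given in the sources used here. Of the rows with a count, 382 hold the same 6 counts as another row, none of them a member. Members, marker lists and tests were chosen with earlier results of these data known.

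From the counts, edgeR 4.0.16 (R 4.3.3) was run with TMM factors, its default low-count filter and the quasi-likelihood test. The filter passed 259 miRNAs, 7 of them members. The design has 2 groups and no covariate, p was adjusted by Benjamini-Hochberg over the 259, and the threshold was 0.05. The code was tested on simulated data. The groups came from the labels, and nothing beyond the mouse numbers describes the replicates, so p-values measure the spread between these mice. Ratios went through an exact permutation test (two-sided), which with 3 mice on each side gives no p below 0.1. Of 7 ratios planned, 1 had zero counts and was not tested, so p was adjusted over 6. Shares have exact Clopper-Pearson 95% intervals. The named miRNAs were the 8 members, other rows named miR-30, miRNAs sharing the 5p seed, the 3 with the profile nearest to the 5p sum, miR-486 and miR-103-3p where scaling turned on them, and the markers. Sequences and positions are from RefSeq (GRCm38.p6), and overlapping genes from GENCODE M21. Alternatives were DESeq2 1.42.0, other scalings and filters, collapsed rows, pooled counts, a pseudocount of 0.5, and each mouse left out.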

Additional observations from a re-analysis of the deposited data

How the results depend on the processing

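No member passed the adjusted threshold under any setting run, and over all tested miRNAs the count was 0 except for 8 with DESeq2. The members' log2 fold changes kept their direction in 101 of 104 recomputations. The exceptions were mmu-miR-30c-5p (0.011) and mmu-miR-30d-5p (0.53) with total counts, and mmu-miR-30b-5p without sham mouse 3 (-0.029; range -0.029 to 0.36 with 1 mouse left out). The count of members at an unadjusted p under 0.05 was 1, became 0 with total counts, with total counts without miR-486 and with scaling to miR-103-3p, and ranged from 0 to 3 with 1 mouse left out, at 3 without Acu/LFES mouse 5 and 2 without sham mouse 1. Without a filter it stayed 1, but mmu-miR-30c-5p lost the call and mmu-miR-30e-3p gained it (edgeR adjusted p = 0.577 for both). Of the mice left out, several moved small fold changes by over 1.5 times, as for mmu-miR-30d-5p (-0.10 without sham mouse 2 and -0.08 without Acu/LFES mouse 5). Leaving mice out of the 3p share was chosen after seeing the data. Over all tested miRNAs that count was 23, with 7 under scaling to miR-103-3p, 53 without a filter, and 19 to 48 with 1 mouse left out, 48 being without sham mouse 1. The log2 difference of the 5p sum was -0.05 and became 0.51 with total counts, where the small miR-486 share of mouse 6 enters. It ranged from -0.10 to 0.02 with 1 mouse left out. The log2 ratio of mmu-miR-30a-3p to mmu-miR-30c-2-3p, 0.45, ranged from -0.64 to 1.09 with 1 mouse left out, and was -0.64 without sham mouse 2 and -0.07 without Acu/LFES mouse 4. The other ratios kept their sign in all recomputations, that of mmu-miR-30a-5p to mmu-miR-30c-5p between 0.72 and 1.16 with 1 mouse left out. No paired analysis was possible because the mouse numbers are not shared between the groups. At 1 to 32 counts per mouse, mmu-miR-30c-2-3p is too rare to show a change.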
